A study of Mus musculus with 8 samples.

Results

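The collagen and laminin genes build much of the extracellular matrix and the basement membranes of nervous tissue. The members were all genes whose single platform symbol is that of a collagen chain or of a laminin alpha, beta or gamma chain. This rule found 54 of the 22180 genes with 1 symbol on the array, 44 collagens and 10 laminins. The rule goes by symbol, and a gene with several rows was represented by the row of highest mean over all 8 arrays. Total RNA was taken from ventral spinal cord at lumbar level, with 1 Affymetrix Mouse Gene 2.0 ST array per sample. The MLC/SOD1G93A group comprised 4 samples of mice on the FVB strain, 120 days old, that carry the human mutant SOD1 (SOD1G93A) under the muscle-specific Myosin Light Chain promoter, which drives it in skeletal muscle. The control group comprised 4 samples of FVB mice of the same age. The labels do not say that each sample is a separate animal, and the p-values therefore measure only the spread between these samples, which may be technical.

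Each collagen is a helical trimer of alpha chains, and each laminin a cross-shaped trimer of an alpha, a beta and a gamma chain. Fibrillar collagens form the fibres of the meninges and of the endoneurium, the connective tissue between axons of a nerve. Collagen IV and the laminins form the sheets on which Schwann cells, endothelial cells and the outer glial surface of the cord rest. Schwann cells, which myelinate axons outside the cord, need laminin to sort and wrap axons, whereas oligodendrocytes inside the cord make no basement membrane.

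The values are log2 signals per transcript cluster, the unit of 1 gene on this array, after robust multichip average (RMA) summary and quantile normalization by the authors. The arrays had nearly equal medians, from 5.33 to 5.37, and pairwise correlations over all rows of 0.977 to 0.987. Motor neuron and oligodendrocyte markers were present on every array. Slc5a7, the choline transporter of cholinergic neurons, read 8.55 to 9.03 in MLC/SOD1G93A and 8.73 to 9.12 in FVB cord. The sensory ganglion list, markers of neurons that lie beside the cord and not in it, averaged 6.85 and 6.88 on MLC/SOD1G93A replicates 1 and 2 and 6.13 and 6.30 on FVB replicates 2 and 4, whereas the remaining 4 arrays averaged 4.89 and 4.99 in MLC/SOD1G93A and 4.88 and 4.81 in FVB cord. By limma 10 of its 11 genes had positive differences and 0 an unadjusted p under 0.05. Xist, which coats the inactive X chromosome, read at least 10.38 on MLC/SOD1G93A replicates 3 and 4 and FVB replicate 4, and at most 4.50 elsewhere. The labels give no sex. In bulk tissue, fewer cells of a type and less RNA per cell cannot be told apart.

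Of the 54 members, 7 were higher in MLC/SOD1G93A cord at a limma unadjusted p under 0.05 and 0 were lower. This share of 13% stood beside 2.81% of all 22180 genes that were higher by the same rule and 3.36% that were lower. None passed the Benjamini-Hochberg adjustment over all rows, and neither did any other gene on the array (0%), with a lowest adjusted p of 0.684 among the members. The 7 were the laminin chains Lamb1 and Lama2 and the collagen chains Col5a3, Col24a1, Col19a1, Col15a1 and Col14a1. None of them reached the 1.5-fold threshold that the study's methods add to the p, a combination met by 0.28% of genes in the higher and 0.149% in the lower direction. In 3 members, Col5a3, Col24a1 and Col19a1, every MLC/SOD1G93A array read above every FVB array, against 2.12% of all genes, and in 0 members every MLC/SOD1G93A array read below, against 2.65% of all genes.

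The differences of the remaining 47 members ran from -0.44 to 0.16. Over all 54, 29 had a positive and 25 a negative difference. Their median log2 difference (MLC/SOD1G93A minus FVB) was 0.0125, beside -1e-04 over all 22180 genes with 1 symbol and 0.0041 over all rows. The median was -0.0125 for the 44 collagens and 0.0425 for the 10 laminins, of which 8 were positive. The count of 7 depended on single arrays: it was 3 without MLC/SOD1G93A replicate 1 or 2 or FVB replicate 1 or 2, 4 without MLC/SOD1G93A replicate 4, and 7 without any of the other 3. Col5a3, Col24a1 and Col19a1 kept an unadjusted p under 0.05 in all 8 of these fits, and the other 4 members in 3 or 4 of them. These fits re-use the arrays over which the 7 were picked, and shares of all genes were not computed for them.

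**Figure D1:**
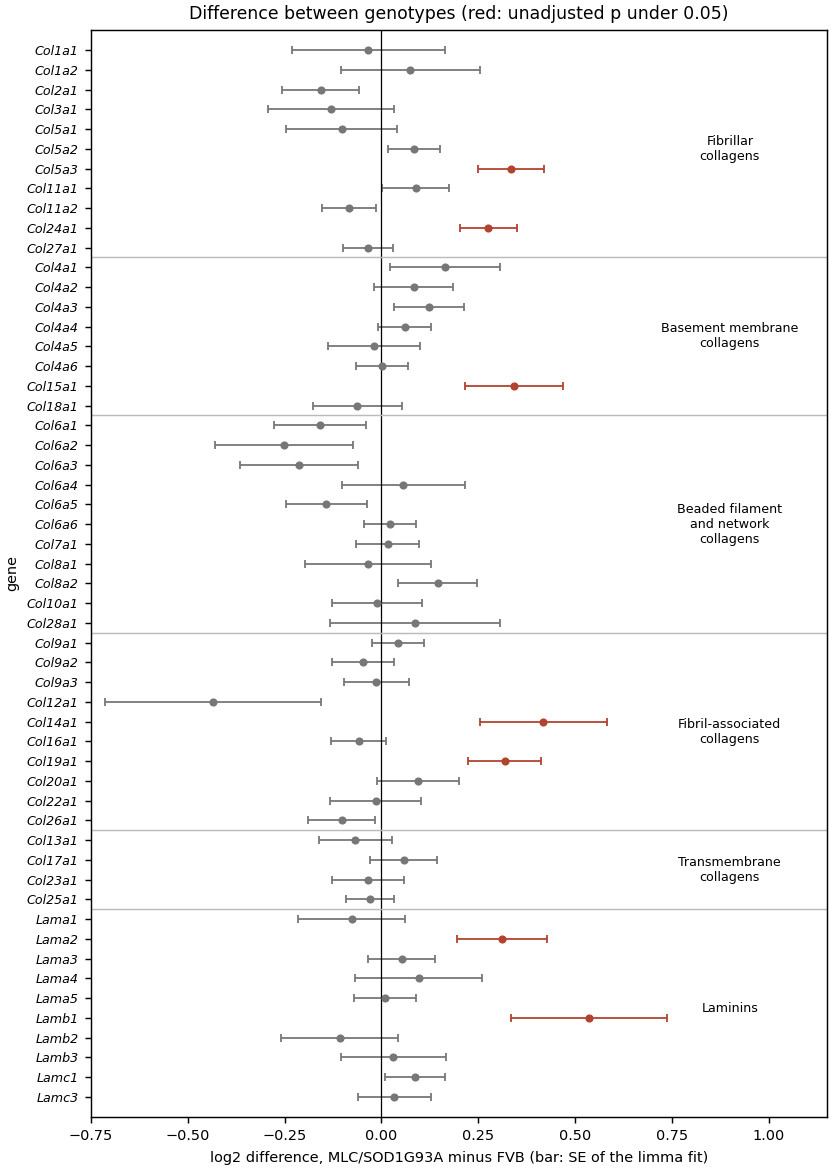
Log2 difference (MLC/SOD1G93A minus FVB, x axis) of each of the 54 collagen and laminin genes (y axis, by class), with bars for the SE of the limma fit over 4 arrays per genotype and red for a limma unadjusted p under 0.05. The 7 red genes all lie to the right of 0, between 0.28 and 0.54; the lowest member is Col12a1 at -0.44.

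The laminins are described first. Lamb1 (transcript cluster 17274775), the beta chain found in most laminins of nerve and vessel, had log2 signals of 6.99, 7.30, 6.38 and 6.78 in MLC/SOD1G93A replicates 1 to 4, against 6.07, 6.15, 6.55 and 6.53 in FVB replicates 1 to 4. MLC/SOD1G93A replicates 1, 2 and 4 lay above all FVB arrays, whereas MLC/SOD1G93A replicate 3 lay among them. The means were 6.86 ± 0.39 in MLC/SOD1G93A and 6.33 ± 0.25 in FVB cord (SD, n = 4 each), a 1.45-fold difference of 0.54 ± 0.20 (SE) on the log2 scale (limma unadjusted p = 0.0282, adjusted p = 0.707), the highest among the 54 members. Without MLC/SOD1G93A replicate 3 it was 0.70 and without MLC/SOD1G93A replicate 2 it was 0.39.

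Lama2 (transcript cluster 17239919), the alpha chain of merosin in the basement membranes of Schwann cells and muscle fibres, had log2 signals of 7.50, 7.37, 7.17 and 7.42 in MLC/SOD1G93A replicates 1 to 4, against 6.89, 6.90, 7.27 and 7.16 in FVB replicates 1 to 4. Again MLC/SOD1G93A replicate 3 was the lowest of its genotype and lay below FVB replicate 3 alone. The difference was 0.31 ± 0.12 (SE), or 1.24-fold (limma unadjusted p = 0.0261, adjusted p = 0.699). Lamc1 (transcript cluster 17228164), the gamma chain that joins both of these in merosin, had log2 signals of 7.64, 7.52, 7.49 and 7.71 in MLC/SOD1G93A replicates 1 to 4, against 7.44, 7.47, 7.54 and 7.57 in FVB replicates 1 to 4, and its difference of 0.087 ± 0.077 (SE) did not pass (limma unadjusted p = 0.288).

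The promoters of both laminin chains with an unadjusted p under 0.05 are shown with that of Col5a3, the collagen of lowest p. Each window holds 250 bases before and 50 after the start of the gene, 5′ to 3′, from RefSeq on GRCm38.p6, and capitals mark GGGCGG or its reverse complement CCGCCC, the GC box to which Sp1 factors bind. The window of Lama2 (chr10:27616893-27617192, minus strand) held 1, that of Lamb1 (chr12:31265043-31265342, plus strand) 2 and that of Col5a3 (chr9:20815018-20815317, minus strand) 3.
Lama2: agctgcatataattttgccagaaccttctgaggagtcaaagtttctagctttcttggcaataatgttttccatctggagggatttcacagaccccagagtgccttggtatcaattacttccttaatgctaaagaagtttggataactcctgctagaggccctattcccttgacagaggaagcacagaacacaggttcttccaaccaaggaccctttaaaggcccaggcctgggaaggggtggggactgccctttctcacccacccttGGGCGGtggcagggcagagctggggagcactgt
Lamb1: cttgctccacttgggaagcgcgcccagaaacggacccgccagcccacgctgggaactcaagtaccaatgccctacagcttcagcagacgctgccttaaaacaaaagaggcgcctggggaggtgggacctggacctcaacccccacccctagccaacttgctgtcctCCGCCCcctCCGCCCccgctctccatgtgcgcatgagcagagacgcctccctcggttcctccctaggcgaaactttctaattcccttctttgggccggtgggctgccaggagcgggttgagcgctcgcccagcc
Col5a3: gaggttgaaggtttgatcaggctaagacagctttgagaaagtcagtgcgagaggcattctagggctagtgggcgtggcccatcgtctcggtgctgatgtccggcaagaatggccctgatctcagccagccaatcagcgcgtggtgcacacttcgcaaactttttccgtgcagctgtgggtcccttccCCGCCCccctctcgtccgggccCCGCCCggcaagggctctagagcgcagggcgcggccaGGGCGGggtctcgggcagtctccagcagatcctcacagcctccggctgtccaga
RefSeq windows were matched for 40 of the 54 members, 44 windows in all, and 59.1% of these held the GC box on either strand, against 35.7% of all 32851 windows. The median G and C content was 59.5% in the members' windows and 52.7% in all windows. The CCAAT box, searched on both strands, was in 31.8% of the members' windows and 37.4% of all. Of the 6 windows matched for the 7 genes above, 3 held the GC box, and these are the 3 printed. The window of Col15a1 (chr4:47207762-47208061, plus strand) held 0. These matches describe letters in a window and do not locate a bound factor.

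The other laminin chains differed less. Lama4 (transcript cluster 17232593), a chain of endothelial and Schwann cell laminins, had log2 signals of 7.13, 7.15, 6.64 and 7.11 in MLC/SOD1G93A replicates 1 to 4, against 6.60, 6.91, 7.26 and 6.89 in FVB replicates 1 to 4, with a difference of 0.096 ± 0.164 (SE) (limma unadjusted p = 0.575). Both genotypes held 1 low array, MLC/SOD1G93A replicate 3 and FVB replicate 1, and the highest array was FVB replicate 3. Lama5, a chain of vascular and epithelial laminins, ran from 5.90 to 6.16 in MLC/SOD1G93A and from 5.92 to 6.12 in FVB cord, a difference of 0.009 ± 0.081 (SE). Lamb2 (transcript cluster 17521727), the beta chain of the neuromuscular synapse and of vessel walls, had log2 signals of 7.20, 6.94, 7.07 and 7.12 in MLC/SOD1G93A replicates 1 to 4, against 6.97, 6.95, 7.61 and 7.24 in FVB replicates 1 to 4, and its difference was -0.11 ± 0.15 (SE), and without FVB replicate 3 0.032. Lama1, Lama3, Lamb3 and Lamc3 had differences of -0.077 to 0.052 (limma unadjusted p of 0.566 or above). Lama3 and Lamb3 are chains of epithelial laminin, and Lamb3 lay below the median row of the array (5.33 log2).

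Among the collagens, Col5a3 (transcript cluster 17524451), the chain of collagen V that Schwann cells make in rat nerve, had log2 signals of 5.999, 6.002, 5.88 and 6.02 in MLC/SOD1G93A replicates 1 to 4, against 5.53, 5.55, 5.82 and 5.66 in FVB replicates 1 to 4. All 4 MLC/SOD1G93A arrays lay above all FVB arrays, and the nearest were MLC/SOD1G93A replicate 3 and FVB replicate 3. The difference was 0.335 ± 0.085 (SE), or 1.26-fold (limma unadjusted p = 0.00387, adjusted p = 0.684). The other collagen V chains did not pass, with Col5a1 at -0.10 ± 0.14 (SE) and Col5a2 at 0.083 ± 0.067 (SE).

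Col24a1 (transcript cluster 17403363), a minor fibrillar collagen known from developing bone, had log2 signals of 6.06, 6.18, 6.08 and 5.99 in MLC/SOD1G93A replicates 1 to 4, against 5.80, 5.74, 5.77 and 5.90 in FVB replicates 1 to 4. The genotypes did not overlap, and the difference was 0.276 ± 0.073 (SE), or 1.21-fold (limma unadjusted p = 0.00474, adjusted p = 0.684). Col19a1 (transcript cluster 17221817), a fibril-associated collagen of basement membrane zones that neurons also make, had log2 signals of 5.14, 5.44, 5.10 and 5.12 in MLC/SOD1G93A replicates 1 to 4, against 4.97, 4.90, 4.78 and 4.88 in FVB replicates 1 to 4. Its genotypes did not overlap either, MLC/SOD1G93A replicate 2 stood above the rest, and the difference was 0.318 ± 0.095 (SE) (limma unadjusted p = 0.00919, adjusted p = 0.684). Col19a1 lay below the median row of the array, where background weighs more in the signal.

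Col15a1 (transcript cluster 17413866), a collagen that tethers basement membranes of nerve, muscle and capillaries to the fibres around them, had log2 signals of 5.87, 5.84, 5.46 and 5.87 in MLC/SOD1G93A replicates 1 to 4, against 5.35, 5.21, 5.53 and 5.58 in FVB replicates 1 to 4. Col14a1 (transcript cluster 17311551), which coats collagen I fibrils, had log2 signals of 6.03, 5.995, 5.40 and 5.87 in MLC/SOD1G93A replicates 1 to 4, against 5.31, 5.14, 5.63 and 5.54 in FVB replicates 1 to 4. In both, MLC/SOD1G93A replicates 1, 2 and 4 lay above all FVB arrays and MLC/SOD1G93A replicate 3 below FVB replicates 3 and 4. The difference was 0.34 ± 0.13 (SE) for Col15a1 (limma unadjusted p = 0.0248, adjusted p = 0.692). For Col14a1 it was 0.42 ± 0.16 (SE) (limma unadjusted p = 0.0327, adjusted p = 0.714). Without MLC/SOD1G93A replicate 3 the differences were 0.44 and 0.56.

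**Figure D2:**
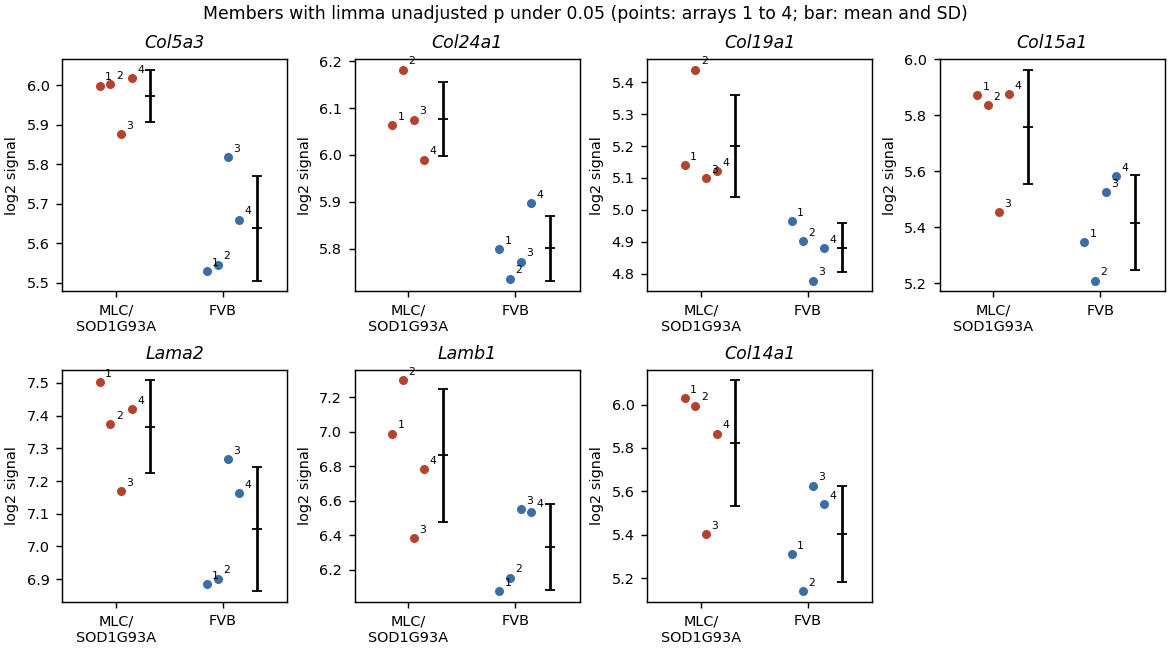
Log2 signal (y axis) of the 7 members with a limma unadjusted p under 0.05, 1 panel per gene, with MLC/SOD1G93A left and FVB right; points are arrays with their replicate number and the bar gives the mean and SD of 4 arrays. Col5a3, Col24a1 and Col19a1 show no overlap, and in Col15a1, Lama2, Lamb1 and Col14a1 MLC/SOD1G93A replicate 3 lies within the FVB range.

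The major fibrillar collagens did not separate the genotypes. Col1a1 (transcript cluster 17255260), a chain of the most abundant fibre of connective tissue, had log2 signals of 7.04, 6.89, 6.72 and 7.22 in MLC/SOD1G93A replicates 1 to 4, against 6.90, 6.60, 7.55 and 6.97 in FVB replicates 1 to 4. Col1a2 (transcript cluster 17455801), its partner chain, had log2 signals of 7.47, 7.33, 7.14 and 7.28 in MLC/SOD1G93A replicates 1 to 4, against 6.95, 6.92, 7.74 and 7.31 in FVB replicates 1 to 4. FVB replicate 3 was the highest array in both genes, and the other FVB arrays lay within or below the MLC/SOD1G93A range. The differences were -0.034 ± 0.198 (SE) for Col1a1 and 0.075 ± 0.18 (SE) for Col1a2, and without FVB replicate 3 they were 0.15 and 0.24. Col3a1 (transcript cluster 17212461), the fibre of soft tissues and vessels, had log2 signals of 6.70, 6.63, 6.42 and 6.52 in MLC/SOD1G93A replicates 1 to 4, against 6.44, 6.51, 7.19 and 6.66 in FVB replicates 1 to 4, and the difference was -0.13 ± 0.16 (SE) (limma unadjusted p = 0.449). Here too FVB replicate 3 stood apart, and without it the difference was 0.034. Over the 11 fibrillar collagens the median difference was -0.034, with 2 higher at an unadjusted p under 0.05 (Col5a3 and Col24a1) and 0 lower. Col2a1, Col11a1, Col11a2 and Col27a1, chains known mainly from cartilage, had differences from -0.16 to 0.088.

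The chains of the common collagen IV network also overlapped. Col4a1 (transcript cluster 17507377) had log2 signals of 6.52, 6.08, 6.18 and 6.18 in MLC/SOD1G93A replicates 1 to 4, against 6.07, 5.76, 6.14 and 6.33 in FVB replicates 1 to 4, a difference of 0.16 ± 0.14 (SE) (limma unadjusted p = 0.281). Col4a2 (transcript cluster 17498962) had log2 signals of 6.33, 5.996, 6.07 and 6.16 in MLC/SOD1G93A replicates 1 to 4, against 6.09, 5.92, 5.97 and 6.23 in FVB replicates 1 to 4, a difference of 0.084 ± 0.102 (SE) (limma unadjusted p = 0.433). In both genes MLC/SOD1G93A replicate 1 was the highest and FVB replicate 2 the lowest of the 8 arrays. These genes run away from each other from a common stretch, and their RefSeq windows on GRCm38.p6, chr8:11312777-11313076, minus strand for Col4a1 and chr8:11312555-11312854, plus strand for Col4a2, share 78 bases. The Col4a1 window is printed for this overlap, with the shared stretch in capitals. Whether the pair varied together across arrays was not tested.
Col4a1: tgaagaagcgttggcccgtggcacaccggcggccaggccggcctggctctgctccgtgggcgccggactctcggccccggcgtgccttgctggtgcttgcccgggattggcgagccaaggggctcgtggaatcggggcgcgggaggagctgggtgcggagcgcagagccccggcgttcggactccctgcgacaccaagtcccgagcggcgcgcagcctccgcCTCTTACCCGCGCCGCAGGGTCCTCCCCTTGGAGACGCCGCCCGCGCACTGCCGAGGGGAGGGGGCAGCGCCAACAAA
The chains Col4a3 to Col4a6, which build the networks of kidney, eye and ear, had differences from -0.019 to 0.12, and Col4a3, Col4a4 and Col4a6 lay below the median row. Col18a1, the closest relative of Col15a1 in vascular and pial basement membranes, differed by -0.062 ± 0.114 (SE). Of the 8 basement membrane collagens, 6 were positive, with a median of 0.072, and Col15a1 alone had an unadjusted p under 0.05.

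Collagen VI, the beaded filament beside basement membranes, had negative differences in all 3 of its common chains, none with an unadjusted p under 0.05. Col6a1 (transcript cluster 17242177) had log2 signals of 7.25, 7.18, 7.30 and 7.44 in MLC/SOD1G93A replicates 1 to 4, against 7.46, 7.17, 7.69 and 7.49 in FVB replicates 1 to 4. Col6a2 (transcript cluster 17242150) had log2 signals of 6.53, 6.13, 6.23 and 6.58 in MLC/SOD1G93A replicates 1 to 4, against 6.55, 6.32, 7.10 and 6.51 in FVB replicates 1 to 4. Col6a3 (transcript cluster 17225413) had log2 signals of 6.03, 5.70, 5.62 and 5.43 in MLC/SOD1G93A replicates 1 to 4, against 5.92, 5.95, 6.16 and 5.62 in FVB replicates 1 to 4. FVB replicate 3 was the highest array in all 3 genes. The difference was -0.16 ± 0.12 (SE) for Col6a1 (limma unadjusted p = 0.213), -0.25 ± 0.18 (SE) for Col6a2 (limma unadjusted p = 0.195) and -0.21 ± 0.15 (SE) for Col6a3 (limma unadjusted p = 0.196). Without FVB replicate 3 that of Col6a2 was -0.092. Over the 8 fits with 1 array left out, Col6a1 ran from -0.254 to -0.078. In the same fits Col6a2 ran from -0.35 to -0.092 and Col6a3 from -0.324 to -0.125. The limma unadjusted p was under 0.05 in 1 of the 8 fits for Col6a1, 0 for Col6a2 and 1 for Col6a3. Col28a1, a collagen found around Schwann cells in mouse nerve, varied more within genotypes than between them, from 4.12 to 5.06 in MLC/SOD1G93A and from 4.28 to 4.94 in FVB cord, a difference of 0.087 ± 0.22 (SE). Its lowest array was MLC/SOD1G93A replicate 3. Over the 11 members that join collagen VI, the network collagens VIII and X, the anchoring collagen VII and Col28a1, the median was -0.011 and 0 had an unadjusted p under 0.05 in either direction by limma.

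Col12a1 (transcript cluster 17529099), a fibril-associated collagen of dense connective tissue, had the lowest difference of all members, -0.44 ± 0.28 (SE) (limma unadjusted p = 0.157, adjusted p = 0.811). It had log2 signals of 6.59, 6.49, 6.17 and 6.72 in MLC/SOD1G93A replicates 1 to 4, against 6.59, 6.53, 7.82 and 6.76 in FVB replicates 1 to 4. FVB replicate 3 stood far above the other 7 arrays, and without FVB replicate 3 the difference was -0.14. The other fibril-associated members, with Col26a1 grouped among them, lay between -0.10 (Col26a1) and 0.095 (Col20a1), apart from Col14a1 and Col19a1. The 4 transmembrane collagens differed by -0.068 to 0.057. Col25a1, which neurons make and which motor axons need to enter muscle in mouse, ran from 6.49 to 6.55 in MLC/SOD1G93A and from 6.51 to 6.61 in FVB cord, a difference of -0.029 ± 0.062 (SE). Col13a1, a collagen of the neuromuscular junction, differed by -0.068 ± 0.094 (SE).

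**Figure D3:**
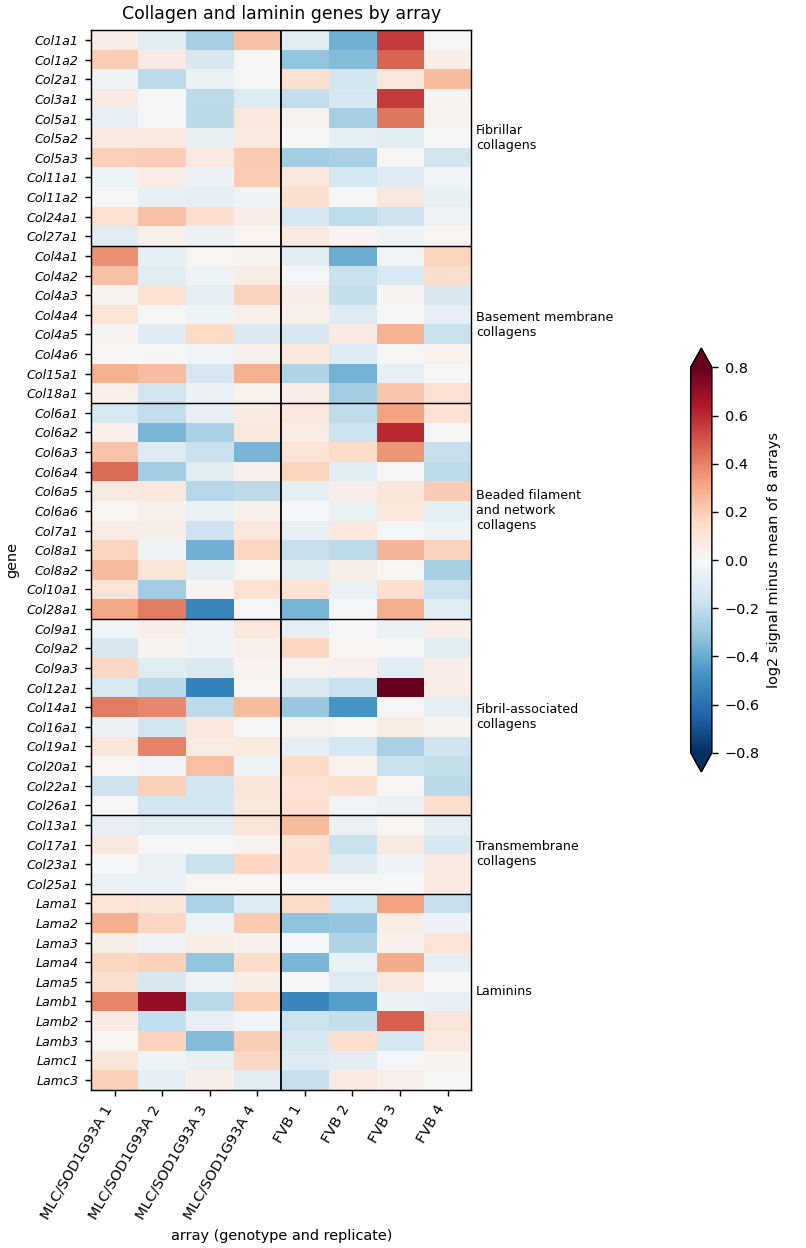
Log2 signal minus the gene's mean over 8 arrays (colour, limited to 0.8 either way) for the 54 members (rows, by class) on the 4 MLC/SOD1G93A arrays (left of the line) and the 4 FVB arrays (right). FVB 3 is the highest array for 16 members, among them Col1a1, Col3a1, Col6a2 and Col12a1, and FVB 2 is the lowest for 16.

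The variation among arrays had a shape of its own. FVB replicate 3 was the highest of the 8 arrays for 16 of the 54 members and FVB replicate 2 for 0, whereas FVB replicate 2 was the lowest for 16. MLC/SOD1G93A replicate 3 was the lowest for 12. Averaged over all members, the deviation from each gene's mean was 0.11 on FVB replicate 3, -0.115 on FVB replicate 2 and -0.10 on MLC/SOD1G93A replicate 3. In 6 of the 7 members with an unadjusted p under 0.05, MLC/SOD1G93A replicate 3 was the lowest of its genotype. Without FVB replicate 3 and MLC/SOD1G93A replicate 3, an alternative chosen after the data were seen, 9 members were higher and 0 lower at an unadjusted p under 0.05, beside 2.72% and 2.26% of all genes, and the median difference was 0.074.

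Chains of the same family differed unequally within an array. The log ratio of Lamb1 to Lamb2 was higher in MLC/SOD1G93A cord by 0.64 ± 0.23 (SE), that of Col14a1 to Col12a1 by 0.85 ± 0.24 (SE) and that of Col5a3 to Col5a1 by 0.44 ± 0.096 (SE). For Col15a1 to Col18a1 it was 0.405 ± 0.11 (SE), for Col24a1 to Col27a1 0.31 ± 0.056 (SE) and for Lama2 to Lama5 0.30 ± 0.092 (SE). The ratios of the genotypes did not overlap in any of these 6 pairs. The pairs were picked by hand after the first gene of each was seen to differ, and no other pairs were read. Their second genes differed by -0.44 (Col12a1) to 0.009 (Lama5). The lack of overlap was thus largely fixed by the choice of pairs, and these values describe the contrast and carry no test.

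Schwann cell markers differed in the direction of the 7 members, and several other marker lists in the opposite one. Of 15 Schwann cell markers listed, 13 were analysed, and 10 of them were higher and 0 lower in MLC/SOD1G93A cord at an unadjusted p under 0.05. Their mean log2 signal was 7.52 to 8.09 in MLC/SOD1G93A and 7.12 to 7.65 in FVB cord. MLC/SOD1G93A replicate 3 had the lowest Schwann cell mean of its genotype, 7.52, as it had the lowest value of its genotype in Lamb1, Lama2, Col15a1 and Col14a1. On FVB replicates 1 to 4 the Schwann cell mean was 7.12, 7.26, 7.29 and 7.65. The mean of the 7 members on the same arrays was 5.70, 5.66, 5.91 and 5.89. Replicates 3 and 4 were thus the highest FVB arrays in both. Replicate 4 led for the markers, and replicate 3 led narrowly for the members, as the highest FVB array in 4 of the 7. The Schwann cell list was drawn up with earlier results of these arrays known, and several of its genes are among those the study selected as higher on the same arrays. Its count is therefore no independent evidence of a direction. Cdh19, a cadherin of Schwann cells, differed by 0.47 ± 0.10 (SE). Fabp7 and Ngfr in this list are not particular to Schwann cells.

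Of 20 markers of meninges and fibroblasts, 2 were higher (Ogn and Dcn) and 7 lower, and their mean was 7.11 to 7.80 in MLC/SOD1G93A and 7.43 to 8.17 in FVB cord, with the highest value on FVB replicate 3. That array was also the highest for endothelial and mural markers, whose mean was 6.90 to 7.14 in MLC/SOD1G93A and 6.996 to 7.44 in FVB cord (0 of 17 higher and 2 lower). Skeletal muscle markers averaged 4.95 to 5.12 in MLC/SOD1G93A and 4.85 to 5.32 in FVB cord, and 0 of 10 had an unadjusted p under 0.05 by limma. Of 7 oligodendrocyte markers 5 were lower, with a mean of 9.59 to 9.90 in MLC/SOD1G93A and 9.97 to 10.24 in FVB cord. Of 7 astrocyte markers 3 were lower, with a mean of 8.75 to 9.10 in MLC/SOD1G93A and 9.15 to 9.30 in FVB cord. Motor neuron markers averaged 6.72 to 7.19 in MLC/SOD1G93A and 6.76 to 7.17 in FVB cord (0 of 8 with an unadjusted p under 0.05). Among them, Prph, Isl1 and Ret read higher on every array with a high sensory ganglion mean than on any other array. What part these cells have in the collagen and laminin differences was not tested.

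**Figure D4:**
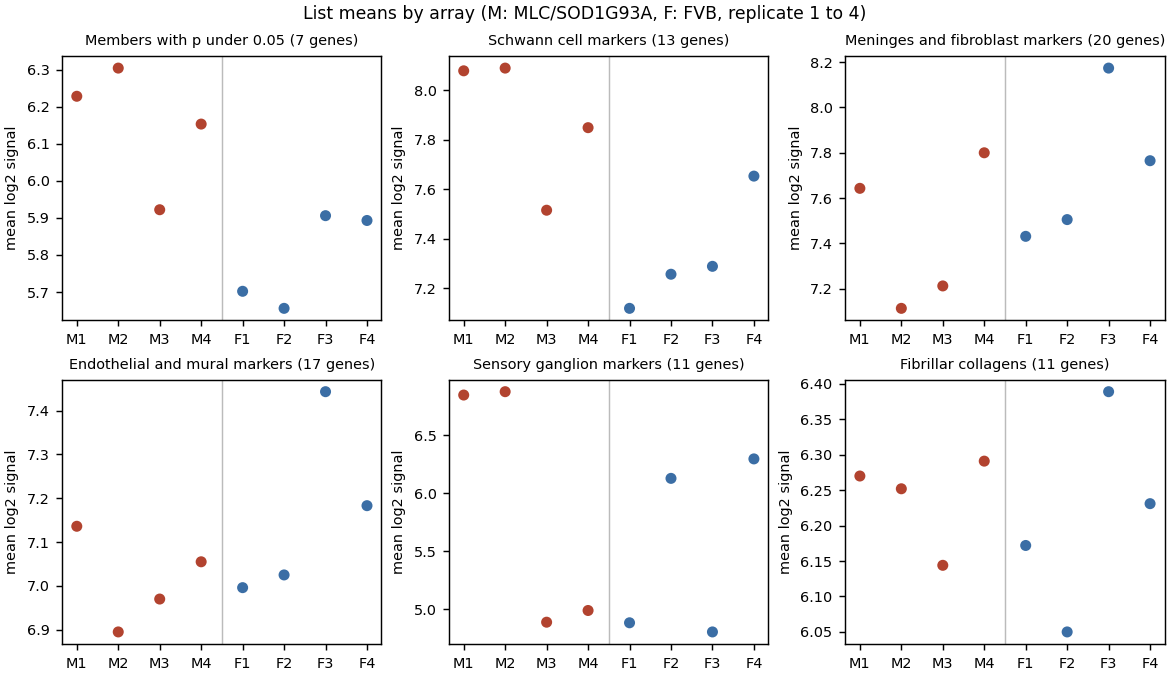
Mean log2 signal (y axis) per array (x axis, M1 to M4 for MLC/SOD1G93A and F1 to F4 for FVB) of the 7 members with an unadjusted p under 0.05, of 4 marker lists and of the 11 fibrillar collagens. M3 is low among MLC/SOD1G93A arrays for the 7 members and for Schwann cell markers. Among FVB arrays, F3 (5.91) and F4 (5.89) are the highest for the 7 members, and F4 (7.65) is the highest for Schwann cell markers. F3 is the highest of all arrays for fibrillar collagens and for meningeal and vascular markers. The 7 members were picked by their p, so the gap in their panel is no finding.

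Because sensory ganglion markers split the arrays evenly between genotypes, the differences were also read within each class of 2 MLC/SOD1G93A against 2 FVB arrays. The classes do not hold these markers level: their mean was higher in MLC/SOD1G93A cord by 0.65 in the high class and by 0.094 in the low class. All 7 members had positive differences in both classes, which was largely fixed by picking them over the same 8 arrays. On the arrays with high sensory markers the difference was 0.80 for Lamb1, 0.67 for Col14a1, 0.46 for Col15a1, 0.41 for Lama2, 0.40 for Col5a3, 0.40 for Col19a1 and 0.31 for Col24a1. On the arrays with low sensory markers it was 0.27 for Lamb1, 0.17 for Col14a1, 0.23 for Col15a1, 0.22 for Lama2, 0.27 for Col5a3, 0.24 for Col19a1 and 0.25 for Col24a1. At an unadjusted p under 0.05, 6 members were higher and 0 lower within the first class, Lamb1, Col14a1, Col15a1, Lama2, Col5a3 and Col28a1 (0.40 for Col28a1), beside 2.16% of all genes higher and 1.02% lower in that fit. Within the second class 0 were higher and 2 lower, Col6a3 at -0.51 and Lama1 at -0.42, beside 1.82% and 2.67% of all genes. With the class as a block, 7 were higher and 0 lower, beside 2.83% and 3.24% of all genes. The difference between the classes was itself tested as an interaction, an alternative chosen after the data were seen, and 1 of the 54 members had an unadjusted p under 0.05, beside 3.84% of all genes. That was Lama1, at 0.68 ± 0.16 (SE, limma unadjusted p = 0.00444, adjusted p = 0.941), a laminin chain of pial basement membranes, which read 5.95, 5.93, 5.58 and 5.73 in MLC/SOD1G93A replicates 1 to 4, against 5.99, 5.70, 6.16 and 5.65 in FVB replicates 1 to 4. Next came Col6a3 at 0.59 ± 0.26 (SE, limma unadjusted p = 0.059), and Lamb1 had 0.53 ± 0.34 (SE, limma unadjusted p = 0.166). With the Xist class as a block 8 members were higher and 0 lower, beside 2.61% and 2.72% of all genes. Within the 5 arrays with low Xist the counts were 7 and 0, beside 2.64% and 2.35% of all genes.

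**Figure D5:**
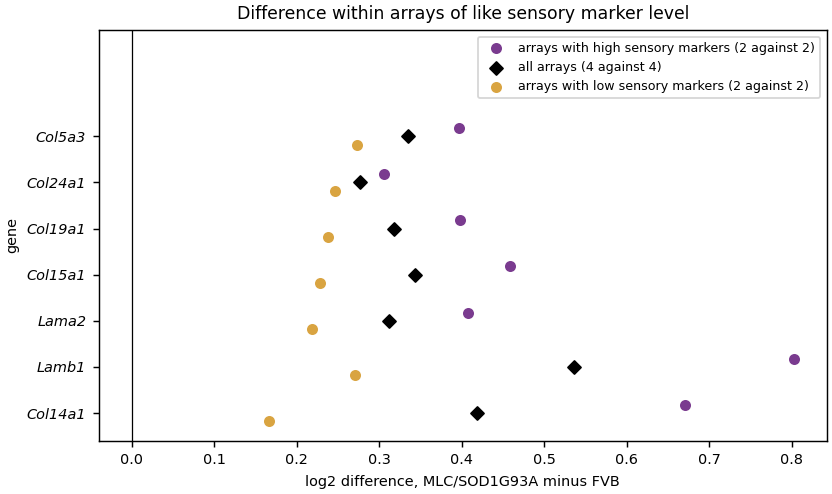
Log2 difference (MLC/SOD1G93A minus FVB, x axis) of the 7 members with an unadjusted p under 0.05 (y axis) within the arrays with high sensory ganglion markers (purple), over all arrays (black diamonds) and within the arrays with low sensory ganglion markers (yellow). All points lie to the right of 0, as picking these members over the same arrays largely fixed, and Lamb1 and Col14a1 spread the widest between the classes.

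The genes that process, bind and cut these chains were read next. Of 28 collagen processing enzymes and chaperones listed, 24 were analysed, with 1 higher, 2 lower and a median difference of 0.010. Pcolce2, which enhances the cutting of procollagen ends, had log2 signals of 7.49, 7.62, 7.65 and 7.51 in MLC/SOD1G93A replicates 1 to 4, against 7.17, 7.41, 7.44 and 7.26 in FVB replicates 1 to 4, with no overlap and a difference of 0.249 ± 0.086 (SE) (limma unadjusted p = 0.0187, adjusted p = 0.684). Bmp1, the protease that makes this cut, had log2 signals of 7.83, 7.85, 7.98 and 7.75 in MLC/SOD1G93A replicates 1 to 4, against 8.03, 7.998, 8.09 and 8.05 in FVB replicates 1 to 4, again without overlap, and a difference of -0.188 ± 0.072 (SE) (limma unadjusted p = 0.0292, adjusted p = 0.709). Plod1, a lysyl hydroxylase of collagen, differed by -0.27 ± 0.11 (SE) (limma unadjusted p = 0.0405, adjusted p = 0.731). Lox, which cross-links collagen fibres, is added for its size, after its values were seen, and had log2 signals of 6.69, 6.31, 6.16 and 7.17 in MLC/SOD1G93A replicates 1 to 4, against 5.34, 5.201, 6.32 and 6.46 in FVB replicates 1 to 4. Both genotypes spread widely and overlapped, and the difference of 0.75 ± 0.34 (SE) did not pass (limma unadjusted p = 0.0564, adjusted p = 0.747).

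Of 18 collagen and laminin receptors listed, 17 were analysed, with 0 higher and 1 lower. That was Ddr1, a collagen receptor tyrosine kinase of oligodendrocytes and epithelia, which had log2 signals of 7.72, 7.47, 7.54 and 7.83 in MLC/SOD1G93A replicates 1 to 4, against 8.13, 7.999, 8.14 and 7.90 in FVB replicates 1 to 4. No FVB array overlapped, and the difference was -0.40 ± 0.10 (SE) (limma unadjusted p = 0.00403, adjusted p = 0.684). Of 13 basement membrane partners, such as nidogens and perlecan, 0 had an unadjusted p under 0.05 by limma, and the lowest p was that of Agrn, the heparan sulfate proteoglycan of the neuromuscular synapse, at -0.101 ± 0.072 (SE) (limma unadjusted p = 0.196). Of 14 matrix metalloproteinases and inhibitors listed, 13 were analysed, with 0 higher and 1 lower, Mmp14, a membrane-bound collagenase, which had log2 signals of 7.31, 7.19, 7.16 and 7.26 in MLC/SOD1G93A replicates 1 to 4, against 7.55, 7.41, 7.98 and 7.54 in FVB replicates 1 to 4 and a difference of -0.39 ± 0.12 (SE) (limma unadjusted p = 0.0124, adjusted p = 0.684). Of 18 TGF-beta signals listed, a pathway that drives collagen transcription, 17 were analysed, 0 were higher, and Tgfb3 was lower by 0.31 on the log2 scale (limma unadjusted p = 0.0384, adjusted p = 0.731). It ran from 8.04 to 8.19 in MLC/SOD1G93A and from 8.26 to 8.82 in FVB cord, with the highest value on FVB replicate 3.

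A second row existed for 3 members, Col1a2, Col5a1 and Col6a1. The dimmer rows read 3.74 to 4.06 for Col1a2 in MLC/SOD1G93A and 3.77 to 3.99 in FVB cord, and their differences were -0.06 for Col1a2, -0.10 for Col5a1 and -0.17 for Col6a1. Rows disagreed in sign for Col1a2 only. Of the 54 members, 40 lay above the median row, beside 13213 of all 22180 genes with 1 symbol. Of these 40, 6 were higher at an unadjusted p under 0.05. The share of all genes above the median row that were higher was not computed, so the 6 are not a result about the members. A member below it, such as Col10a1 or Col22a1, gives little room for a difference to be seen on these arrays.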

How the data were processed

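RNA of ventral spinal cord at lumbar level was measured in 4 MLC/SOD1G93A and 4 FVB samples on Affymetrix Mouse Gene 2.0 ST arrays, grouped and numbered by sample title. The deposited values were log2 signals per transcript cluster, which the authors made from scanned probe intensities by robust multichip average (RMA) with sketch quantile normalization. The submitters' processing notes name RMA and Affymetrix Expression Console. Their versions, any filter and a genome build are not given in the sources used here. Quantile normalization hides a shift shared by most genes, and the number of arrays limits the precision.

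A linear model of genotype alone was fitted to all 41345 rows, with no filter, by lmFit and eBayes of limma 3.58.1 (R 4.3.3), since the study's methods name an unpaired test, with Benjamini-Hochberg adjustment over all rows. Differences are MLC/SOD1G93A minus FVB. Platform symbols gave 1 gene to 23521 rows, several to 1820 and none to 16004. Symbols of the lists were looked up as given or by their RefSeq synonyms. The members and lists were chosen with earlier results of these data known. Named genes were members with an unadjusted p under 0.05 or without overlap, the 3 highest and 3 lowest differences, the chains of common trimers, and, per pathway list, up to 4 genes with an unadjusted p under 0.05 or else the gene of lowest p. Col5a1, Col28a1, Col25a1 and other members outside this rule were named to account for their class, and the marker Cdh19 was named after its value was seen. The sequences came from RefSeq (GRCm38.p6). Alternatives were each array left out, the replicate block, other normalizations, a filter on dim rows, the mean of a gene's rows, other variance models, array weights, the methods' t-test, and Xist and sensory marker classes of the arrays. The fit was tested on simulated data.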

Additional observations from a re-analysis of the deposited data

Results flagged for a closer look

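A single array lay far from the other 3 of its genotype in 7 of 82 groups examined (20 named members, 8 means of members and 13 means of other lists, in each genotype). Chance alone marks about 1 in 20 independent groups. These groups share arrays and genes, so 7 of 82 cannot be read against that rate. MLC/SOD1G93A replicate 3 stood low in Col5a3 at 5.88, with the other 3 arrays of its genotype at 5.999 to 6.02. The same array stood low in Col15a1 at 5.46, with the other 3 arrays of its genotype at 5.84 to 5.87, and in Lama4 at 6.64, with the other 3 arrays of its genotype at 7.11 to 7.15. MLC/SOD1G93A replicate 2 stood high in Col19a1 at 5.44, with the other 3 arrays of its genotype at 5.10 to 5.14. FVB replicate 3 stood high in the mean of the beaded filament and network collagens at 5.62, with the other 3 arrays of its genotype at 5.38 to 5.41. It also stood high in the mean of TGF-beta signals at 7.42, with the other 3 arrays of its genotype at 7.22 to 7.25. MLC/SOD1G93A replicate 2 stood low in the mean of astrocyte markers at 8.75, with the other 3 arrays of its genotype at 9.06 to 9.10.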

How the results depend on the processing

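All 7 members with an unadjusted p under 0.05 stayed positive under each of the 21 or 22 alternatives. Picking them over the same arrays largely fixed this sign. Under any of these alternatives 0 members passed the adjusted threshold. Whether the replicate numbers pair the samples was not settled. Deviations from the genotype means correlated at -0.083 to 0.242 between same-numbered arrays. In replicates 1 and 3 another number correlated better, and in replicates 2 and 4 the same number did. With the replicate block, 4 members were higher and 0 lower, and 2 pathway genes were higher. With 1 array left out, 3 to 7 members were higher and 0 to 2 lower. In these fits 0 to 1 passed p and fold and 3 to 9 had genotypes apart. The fibrillar median was -0.047 to 0.067, and 0 to 4 pathway genes were higher and 2 to 6 lower. Shares of all genes were not computed for these fits, for the replicate block or for the methods' t-test. Their counts therefore cannot be read against the array as a whole. Members past p and fold numbered 1 with the Xist block, 2 within arrays with low Xist, 2 within arrays with high sensory markers and 2 without both arrays of replicate 3. Members with genotypes apart numbered 14 within low Xist, 19 within high and 14 within low sensory markers. Without both arrays of replicate 3 they numbered 11. Fewer arrays overlap less, whatever the gene. Shares of all genes past p and fold or apart were not computed in these fits, so neither count is a result about the members. Within low sensory markers 0 members were higher and 2 lower, and the medians were -0.136 for fibrillar and -0.15 for beaded filament and network collagens. Within high sensory markers the medians were 0.075 over all members and 0.094 over fibrillar collagens, and without both arrays of replicate 3 0.074 and 0.100. The median over all members was -0.017 over rows above the median row. Pathway genes higher and lower numbered 2 and 3 with array weights, 2 and 5 with trend and robust settings, 1 and 3 with the Xist block, 4 and 2 within low Xist, 3 and 0 within high and 0 and 3 within low sensory markers, and 8 and 3 without both arrays of replicate 3, against 1 and 5 in the fit reported. The methods' t-test gave 5 members higher, 0 lower and 0 after adjustment. Left-out arrays turned the sign of Col1a1 (-0.17 to 0.147), Col1a2 (-0.028 to 0.24), Col3a1 (-0.22 to 0.034), Lamb2 (-0.19 to 0.032), Lama4 (-0.009 to 0.22) and Lama5 (-0.031 to 0.053), none of which had an unadjusted p under 0.05 in the fit reported. The alternatives without both arrays of replicate 3 were chosen after seeing the data. Signs also turned with array weights (Col1a1 0.015), within high sensory markers (Col6a3 0.080, Col1a1 0.182, Col3a1 0.081), within low sensory markers (Col1a2 -0.136, Lama4 -0.051, Lama5 -0.034) and without both arrays of replicate 3 (Col1a1 0.229, Col3a1 0.083, Lamb2 0.036). The cause was not tested.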
